A study of Homo sapiens with 6 samples.

Results

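The mitochondrial ribosomal protein genes were taken from the deposited expression table as the rows with an Ensembl identifier whose symbol is MRPL or MRPS followed by a number and at most 1 letter. The rule found 78 genes among 19974 Ensembl rows and 27328 rows in all, 49 of the large subunit (MRPL) and 29 of the small subunit (MRPS). They were measured in 6 RNA-seq libraries of purified mRNA from SACC-83, an established human line of salivary adenoid cystic carcinoma. The genotype of the 3 vector libraries is labelled WT. The other 3 are titled as overexpression libraries. Their genotype labels read circMYBL1, circMYBL2 and circMYBL3 overexpression, with a number that runs with the replicate, while the design text names only circMYBL1, a circular RNA named after the gene MYBL1. The stated purpose was to find target genes of this circular RNA. No label gives the construct, the time after its delivery or whether libraries came from separate cultures, so the p-values here speak of these libraries alone, and their spread may be technical. No label says what a replicate number stands for.

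The mitochondrial ribosome translates the few mRNAs of the mitochondrial genome, which encode core subunits of the respiratory chain and of ATP synthase. Its protein components are encoded in the nucleus, made in the cytosol and imported, and they assemble with rRNAs from mitochondrial DNA. Some descend from bacterial ribosomal proteins, and others were gained in mitochondria. The symbols do not follow the structure in every case: MRPS30 and MRPS18A are placed in the large subunit, and MRPS36 is now described as a component of the alpha-ketoglutarate dehydrogenase complex.

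Levels are FPKM as deposited. FPKM divides the fragments of a gene by its length and by the library total, so levels can be compared between genes. Differences are of log2(FPKM + 1), which understates changes of low genes. The depth of the libraries is unknown, as the table holds no counts. Across the table, summed FPKM per library lay between 371776 and 408826, and pairs of libraries correlated at a Pearson's r of 0.915 to 0.990 on the log2 scale. MYBL1 read 9.04, 7.15 and 10.3 FPKM in vector libraries 1, 2 and 3 and 359, 44.0 and 2025 FPKM in overexpression libraries 1, 2 and 3, a gene-level value that does not separate circular from linear RNA. CD44, named in the series title, read 120 ± 5.87 FPKM in the vector and 154 ± 14.1 FPKM in the overexpression libraries (SD, n = 3 each). The log2 difference of CD44 was 0.36 (SE 0.13, limma, adjusted p = 1, and 0.445 with a replicate block).

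All 78 genes were expressed at 1 FPKM or more in each of the 6 libraries, and none was at 0. Their mean levels over the 6 libraries ran from 6.21 to 109 FPKM with a median of 24.0 FPKM, against a median of 9.83 FPKM over the 12064 rows tested, and 73 of the 78 lay above that median. The most abundant was MRPS24, which lies at the mRNA entry of the small subunit, at 128, 92.8 and 108 FPKM in vector libraries 1, 2 and 3 and 117, 99.9 and 107 FPKM in overexpression libraries 1, 2 and 3. MRPL3, close to the peptidyl transferase centre, followed with a mean of 102 FPKM, ahead of MRPL37 (84.6 FPKM), MRPS2 (82.5 FPKM) and the stalk protein MRPL12 (75.1 FPKM). The highest and second-highest do not differ beyond their spread, since MRPL3 ranged from 60.2 to 136 FPKM. At the other end, MRPL50 had a mean of 6.21 FPKM, MRPL1 of 8.07, MRPS23 of 8.65, MRPL35 of 9.36 and MRPL46 of 9.39 FPKM. The lowest single value was that of MRPL1 in vector library 2, 3.09 FPKM.

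**Figure D1:**
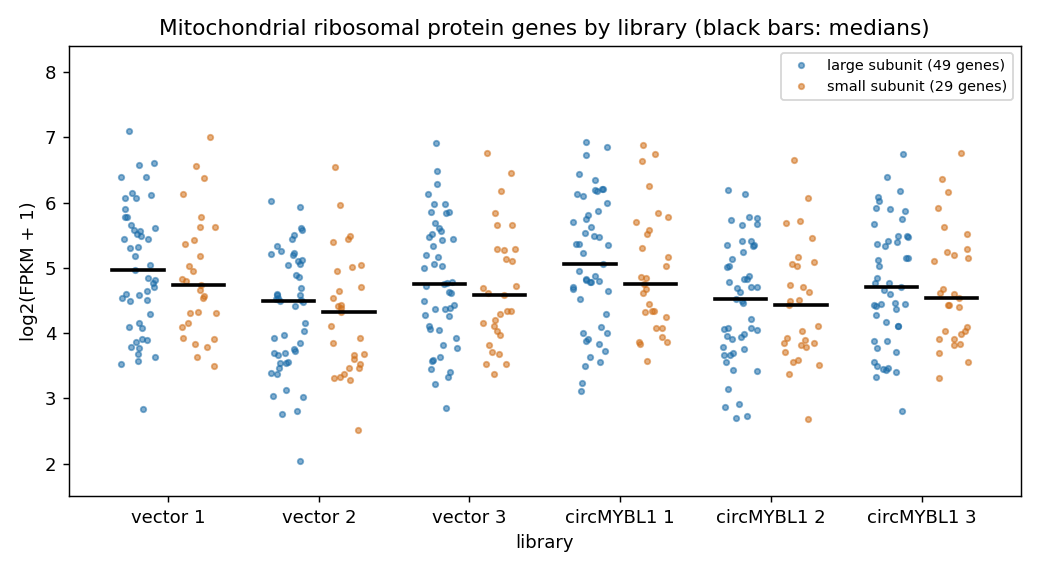
Level of each mitochondrial ribosomal protein gene (log2(FPKM + 1), vertical axis) in each of the 6 libraries (horizontal axis), with large-subunit genes in blue, small-subunit genes in orange and black bars at the medians. The overexpression libraries are marked circMYBL1; in both groups the bars of library 2 are the lowest of the 3.

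The large-subunit genes were expressed a little above the small-subunit genes in every library. Median levels of the large subunit were 30.4, 21.5 and 25.8 FPKM in vector libraries 1, 2 and 3 and 32.4, 21.9 and 25.0 FPKM in overexpression libraries 1, 2 and 3. Those of the small subunit were 25.6, 18.9 and 22.9 FPKM and 25.8, 20.5 and 22.2 FPKM in the same order. The summed level of the 49 large-subunit genes was 1.86, 1.68 and 1.80 times that of the 29 small-subunit genes in the vector libraries and 1.89, 1.69 and 1.76 times in the overexpression libraries. The 2 groups overlap in this ratio, and in each group it is lowest in library 2. Counting MRPS30 and MRPS18A with the large subunit, where structures place them, gave ratios of 1.85 to 2.06. The 78 genes together held 0.741%, 0.487% and 0.643% of the summed FPKM in vector libraries 1, 2 and 3 and 0.761%, 0.533% and 0.635% in overexpression libraries 1, 2 and 3, again with the lowest share in library 2 of each group.

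Between overexpression and vector, no mitochondrial ribosomal protein gene passed the test. With limma on log2(FPKM + 1), group as the only term and Benjamini-Hochberg adjustment over all rows tested, 0 of the 78 genes were called, where 0% of the 12064 rows were called. MYBL1, with a log2 difference of 5.04 (SE 1.22), was not called in this fit either. An absent call here therefore does not show that a gene was unchanged. At an unadjusted p under 0.05 there were 65 rows, 0.539% of those tested, and 0 of the 78 genes. Same-numbered libraries of both groups deviated together, so a fit with the replicate number as a block was run as well. It called 12 rows, 0.0995% of those tested, MYBL1 among them (limma, adjusted p = 0.0226), and again 0 of the 78 genes, whose lowest adjusted p was 0.558. Its unadjusted p was under 0.05 for 868 rows (7.19%) and for MRPL41, MRPL54 and MRPS33 among the 78 genes (3.85%).

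The group differences were small and, in the deposited values, mostly positive. On average over libraries, 61 of the 78 genes were higher with overexpression, 39 of 49 in the large and 22 of 29 in the small subunit, beside 58.1% of all rows tested. The median log2 difference was 0.07 in the large and 0.07 in the small subunit, beside 0.03 over all rows. Within pairs of the same number, the median over the 78 genes was 0.09, 0.15 and -0.03 for numbers 1, 2 and 3. Higher values in all 3 pairs were seen for 20 of the 78 genes and for 16.5% of rows tested. The sign of the subunit medians rested on single libraries: without vector library 2 they were -0.13 (large) and -0.09 (small), and without overexpression library 1 they were -0.08 and -0.05. Without vector library 1 they were 0.21 and 0.18, and without overexpression library 2 they were 0.19 and 0.21.

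None of the widest differences passed the test in either fit. The replicate block narrowed their errors, to an SE of 0.13 for MRPL54 and 0.11 for MRPL41 (limma, adjusted p = 0.558 and 0.632). MRPL54, a protein of the large subunit gained in mitochondria, read 18.5, 9.49 and 16.3 FPKM in vector libraries 1, 2 and 3 and 28.3, 14.5 and 16.3 FPKM in overexpression libraries 1, 2 and 3. Pairs 1 and 2 were higher with overexpression and pair 3 was level, and the log2 difference was 0.38 (SE 0.32, limma, adjusted p = 1). MRPL41 read 42.3, 36.5 and 39.2 FPKM against 62.9, 39.6 and 44.1 FPKM, with overexpression library 2 inside the vector range and a log2 difference of 0.28. The other 4 of the 6 highest were MRPL1 (0.29), MRPS33 (0.25), MRPL51 (0.22) and MRPS6 (0.21). At the low end stood MRPL42, with 15.9, 10.0 and 11.02 FPKM in the vector and 8.42, 11.7 and 9.61 FPKM in the overexpression libraries. Only pair 1 of MRPL42 was clearly apart, and its log2 difference was -0.27 (SE 0.21, limma, adjusted p = 1). MRPL43 (-0.12), MRPL30 (-0.09), MRPL33 (-0.09), MRPL11 (-0.08) and MRPS16 (-0.07) followed.

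The 2 groups did not overlap for 1 of the 78 genes. MRPS14, a protein of the head of the small subunit, read 12.8, 11.7 and 11.9 FPKM in vector libraries 1, 2 and 3 and 13.6, 13.4 and 13.1 FPKM in overexpression libraries 1, 2 and 3. Each overexpression value lay above each vector value, by a log2 difference of 0.13 (SE 0.12, limma, adjusted p = 1). Among all rows, 2.5% were higher without overlap and 0.845% lower. None of the 78 genes was lower without overlap. The exons of MRPS14 share 13.5% of their length with CACYBP (mean 57.9 FPKM) on the opposite strand, and whether counting used strand is not stated.

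The replicate number, by contrast, set the mitochondrial ribosomal protein genes apart in the same direction in both groups. In a fit with group and number, the F test of number called 54 of the 78 genes, 36 of 49 in the large and 18 of 29 in the small subunit, where it called 46.5% of all rows. The calls went one way, as 63 of the 78 genes were lower in number 2 than in number 1, 42 of 49 in the large and 21 of 29 in the small subunit, beside 20.7% of rows. None of the 78 was called higher, beside 29.5% of rows. A fold of at least 2 was reached by 9 of them, MRPL1, MRPL11, MRPL12, MRPL15, MRPL21, MRPL22, MRPL51, MRPS12 and MRPS23, beside 3.1% of rows. The fit leaves 2 residual degrees of freedom per row, and limma pools the spread over rows.

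All 78 genes were lower in vector library 2 than in vector library 1, as were 43.8% of rows, and 77 were lower in overexpression library 2 than in overexpression library 1, as were 44.4% of rows. The exception was MRPL42. Both libraries numbered 2 lay below the other 4 for 65 of the 78 genes and for 25.7% of rows. The median difference of number 2 from number 1 was -0.64 in the large and -0.47 in the small subunit, where all rows had a median of 0.09. Whether the subunits differ in this was not tested. Within the vector group alone the medians were -0.59 and -0.56, and within the overexpression group -0.63 and -0.49. Across the 78 genes the drops in the 2 groups ran together (Spearman's rho 0.75, n = 78 genes of the same 4 libraries, as a description).

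**Figure D2:**
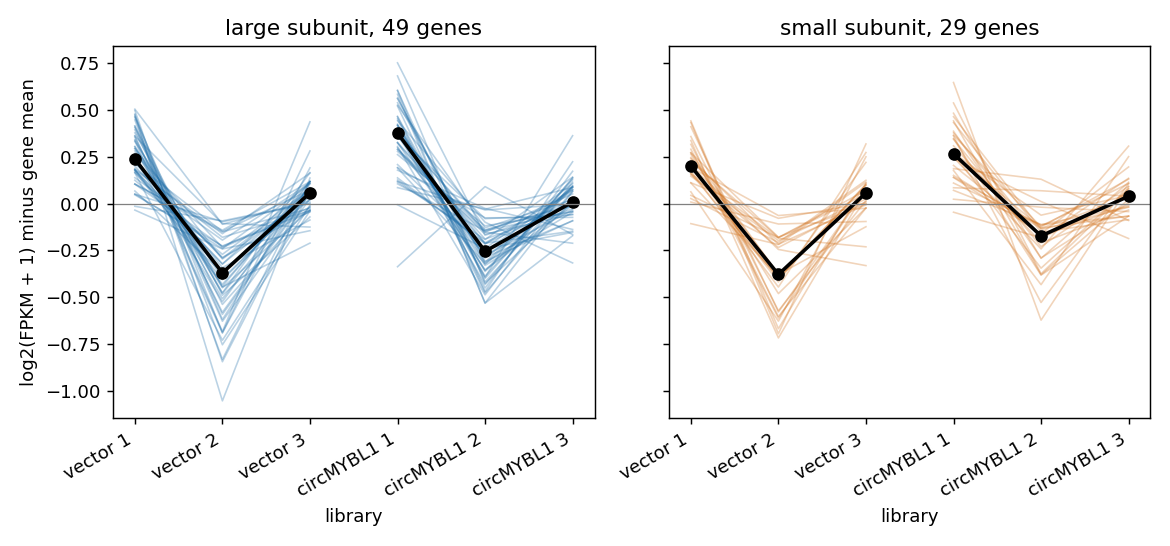
Each thin line is a gene: its log2(FPKM + 1) in the 3 libraries of a group minus its own mean of the 6 libraries (vertical axis), with the large subunit on the left and the small subunit on the right, and black points at the medians. Library 2 is the low point of the medians in both groups and both subunits.

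Library 3 lay between the others. With all 6 libraries, no gene of the 78 was called between numbers 3 and 1, where 0.0995% of rows were lower and 0.448% higher in number 3. The median difference of the 78 was -0.26, and -0.32 to -0.18 when single libraries were left out. A few genes were then called lower, in fits that keep a single library for a number. The widest differences with all 6 libraries were MRPL55 (-0.55), MRPL12 (-0.50) and MRPL14 (-0.49) on one side. On the other were MRPS6 (0.12), MRPS30 (0.09) and MRPS31 (0.02). Against number 2, number 3 was higher for 36 of the 78 genes, 24 in the large and 12 in the small subunit, beside 15.3% of rows, and lower for none, beside 20.8% of rows. This count fell to 12 without vector library 3 and to 16 without vector library 2. The order 1 above 3 above 2 in both groups was shown by 52 of the 78 genes and by 14.1% of rows. The largest rises from number 2 to number 3 were those of MRPL1 (0.97), MRPS23 (0.82) and MRPL15 (0.80), while MRPL42 (-0.07), MRPL14 (-0.04) and MRPS14 (-0.01) had the lowest differences and were not called.

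Several of the widest drops were in large-subunit genes. MRPL1 (ENSG00000169288, GRCh38 chromosome 4, 77862520 to 77952790, plus strand) forms the stalk on the side where tRNA leaves. It read 10.8, 3.09 and 8.34 FPKM in vector libraries 1, 2 and 3 and 10.7, 5.47 and 9.93 FPKM in overexpression libraries 1, 2 and 3. Both libraries numbered 2 were the lowest, and the difference from number 1 was -1.20 (SE 0.16, limma, adjusted p = 0.000306). MRPL12 (ENSG00000262814, chromosome 17, 81703357 to 81707526, plus strand) is the stalk protein that recruits translation factors. It read 96.8, 39.3 and 76.8 FPKM and 114, 52.4 and 71.2 FPKM, with a difference of -1.19 (SE 0.14, limma, adjusted p = 0.000115). An exon overlap of 68.2% with a second annotated gene on the same strand, itself listed at 0, makes the split of reads at MRPL12 uncertain. MRPL11, at the base of the same stalk, read 59.0, 28.1 and 62.2 FPKM and 69.0, 31.3 and 40.4 FPKM, with a difference of -1.08 (SE 0.18, limma, adjusted p = 0.00101). In the overexpression group its library 3 lay nearer to library 2, in the vector group nearer to library 1. MRPL10, which joins MRPL12 to the ribosome, was not called, at -0.22 (SE 0.12, limma, adjusted p = 0.152).

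MRPL15 (ENSG00000137547) read 31.9, 11.96 and 23.4 FPKM in the vector and 32.4, 15.8 and 26.2 FPKM in the overexpression libraries, and its difference was -1.17 (SE 0.13, limma, adjusted p = 8.52e-05). MRPL22, whose protein lines the exit tunnel for the nascent chain, read 12.8, 5.97 and 9.94 FPKM and 15.0, 6.27 and 9.99 FPKM, with a difference of -1.06. For both genes the 2 lowest values of the 6 were those of number 2. MRPL3, the most abundant of the large subunit, read 136, 60.2 and 119 FPKM and 121, 69.4 and 106 FPKM, with a difference of -0.98 (SE 0.13, limma, adjusted p = 0.00022). Of the proteins gained in mitochondria, MRPL51 had the widest drop, from 68.2 to 28.8 FPKM in the vector and from 73.2 to 39.2 FPKM in the overexpression libraries. The exons of MRPL51 overlap NCAPD2 (mean 56.7 FPKM) on the opposite strand over 31.3% of their length, and whether counting used strand is not stated. MRPL58, which also acts as a peptidyl-tRNA hydrolase that rescues stalled ribosomes, went from 24.1 to 14.1 and from 25.1 to 14.9 FPKM, a difference of -0.72.

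In the small subunit, MRPS12 (ENSG00000128626, chromosome 19, 38930548 to 38933162, plus strand), part of the decoding centre, read 29.98, 13.4 and 23.6 FPKM in the vector and 34.7, 13.8 and 23.3 FPKM in the overexpression libraries. Its values matched closely between groups at numbers 2 and 3, and the difference of number 2 from number 1 was -1.19 (SE 0.12, limma, adjusted p = 5.43e-05), the smallest adjusted p of the 78. MRPS23 read 11.5, 4.71 and 10.5 FPKM and 10.9, 5.404 and 8.95 FPKM, with a difference of -1.01. MRPS7, a protein of the head of the subunit, read 40.4, 18.9 and 33.5 FPKM and 44.8, 25.8 and 34.5 FPKM, with a difference of -0.92. MRPS34 read 82.4, 43.6 and 71.0 FPKM and 98.0, 51.6 and 70.9 FPKM, with a difference of -0.91.

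The 15 genes that were not called between numbers 2 and 1 had differences from -0.35 (MRPS36) to -0.07 (MRPS14). MRPS14, given above, varied between 11.7 and 13.6 FPKM over all 6 libraries. MRPS5, near the mRNA entry of the small subunit, read 27.5, 24.0 and 25.4 FPKM in the vector and 25.8, 25.0 and 24.6 FPKM in the overexpression libraries, a difference of -0.12 (SE 0.11, limma, adjusted p = 0.413). MRPL42 had the widest error, with a difference of -0.09 (SE 0.21, limma, adjusted p = 0.725), since its vector and overexpression pairs went opposite ways.

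The 3 paralogs of the S18 family were all lower on average in number 2, and 2 of them passed the test. MRPS18B read 48.6, 31.4 and 49.5 FPKM in the vector and 51.1, 33.1 and 44.8 FPKM in the overexpression libraries, and MRPS18C read 19.1, 14.1 and 16.7 FPKM and 20.8, 12.1 and 15.4 FPKM. Number 2 was the lowest for both, with differences from number 1 of -0.61 and -0.57 that passed the test (limma, adjusted p = 0.00183 and 0.00436). MRPS18A, the paralog placed in the large subunit, read 24.3, 20.6 and 24.7 FPKM and 27.9, 23.7 and 20.5 FPKM, a difference of -0.23 (SE 0.14) that did not pass (limma, adjusted p = 0.196). Differences between the paralogs were not tested. The exons of MRPS18A overlap RSPH9 (mean 0.240 FPKM) on the opposite strand over 47.0% of their length. Those of MRPS18C overlap ABRAXAS1 (mean 1.83 FPKM) on the opposite strand over 40.2%. Whether counting used strand is not stated. MRPS30, also placed in the large subunit, read 31.7, 20.3 and 34.0 FPKM and 31.8, 20.5 and 33.5 FPKM, nearly the same in both groups at each number, with a difference of -0.62 (SE 0.11, limma, adjusted p = 0.00142).

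**Figure D3:**
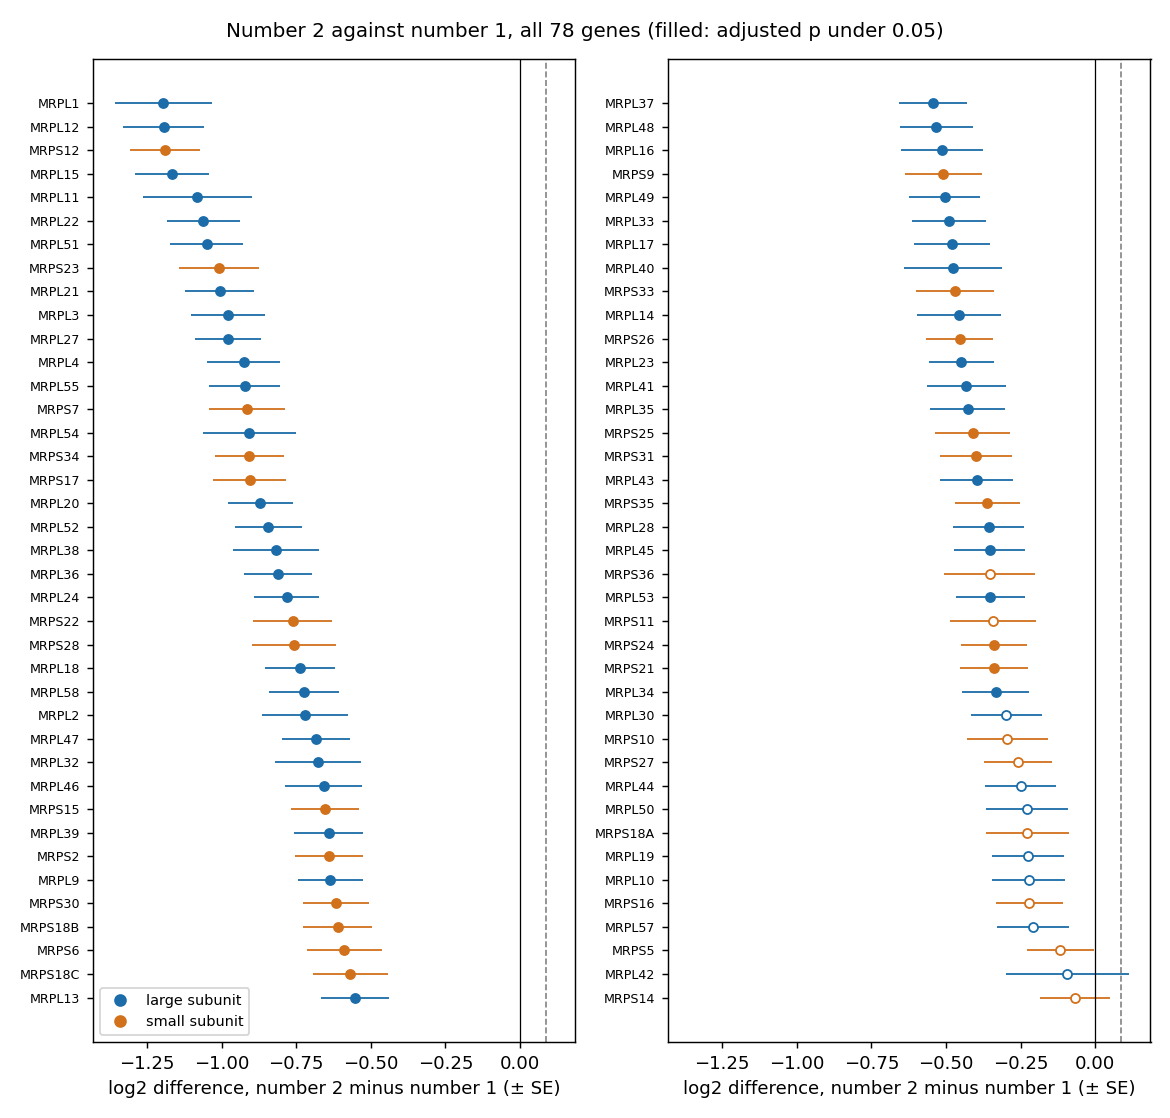
Log2 difference of number 2 from number 1 with its standard error (horizontal axis) for each of the 78 genes, sorted from the largest drop at the upper left to the smallest at the lower right; blue is the large and orange the small subunit. Filled points passed the test (63 genes), the solid line is 0 and the dashed line is the median of all rows, 0.09.

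By descent, 38 of 47 genes of bacterial ribosomal families were called lower in number 2 (median -0.61), and so were 24 of 29 genes gained in mitochondria (median -0.48), beside 20.7% of all rows (median 0.09). As a description over the 78 genes, the difference ran weakly with GC content (Spearman's rho -0.20), exon length (0.13) and mean level (-0.24). These genes have a median exon length of 2539 bases against 5112 over all rows with a length, and a median GC content of 47.7% against 48.3%. With each library corrected for GC content and length, 50 of the 78 genes were lower, none was higher, and the median was -0.43, where 22.9% of all rows were lower, 29.1% were higher and the median was 0.04. The genes are spread over 21 chromosomes.

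**Figure D4:**
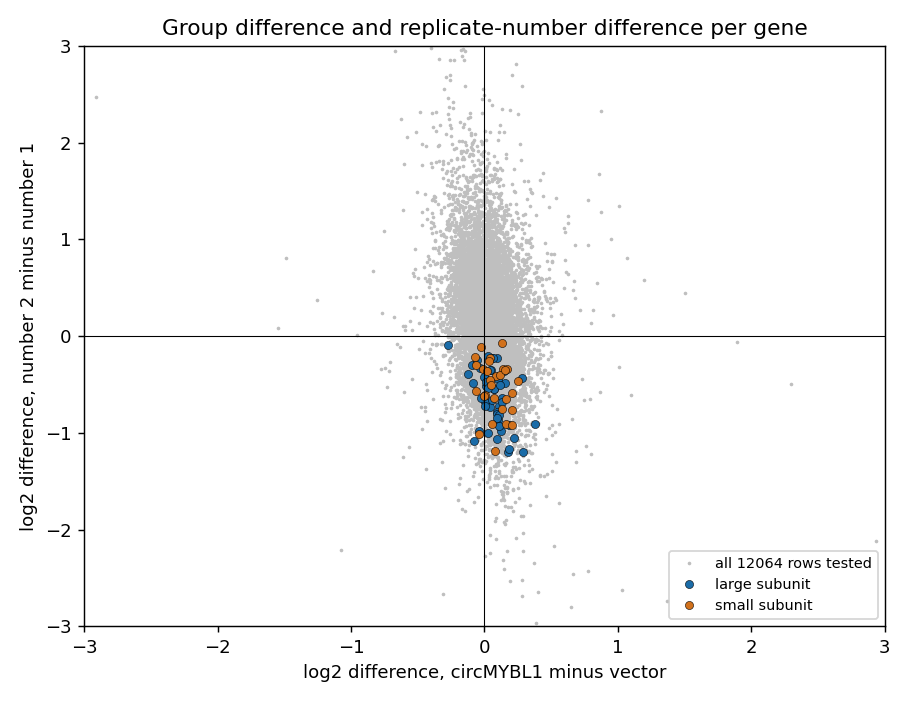
Each point is a row: its log2 difference between overexpression and vector (horizontal axis) and between numbers 2 and 1 (vertical axis), with all rows in grey, the large subunit in blue and the small subunit in orange. The mitochondrial ribosomal protein genes lie below 0 on the vertical axis, from -1.20 to -0.07, and close to 0 on the horizontal axis, from -0.27 to 0.38; 24 rows fall outside the axes.

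The scaling of the libraries moved the middle of all rows, from 0.09 in the deposited values to -0.09 with trimmed-mean (TMM) factors and 0.18 as TPM. The split of all rows moved with it, from 20.7% lower and 29.5% higher to 32.4% and 20.7% with TMM factors and to 17.2% and 35.3% as TPM. Among the 78 genes, 76 were lower with TMM factors, 55 as TPM and 65 with quantile scaling, and none was called higher under any of the 3. Their median difference was -0.75, -0.47 and -0.55. When 1 library was left out at a time, between 44 and 63 were lower.

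Cell type markers were also compared between numbers 2 and 1, where 29.5% of all rows were called higher and 20.7% lower. Of 9 epithelial markers, 8 were tested, and 4 were called higher and 2 lower in number 2. KRT5, a basal keratin, read 120, 412 and 142 FPKM in the vector and 94.9, 347 and 104 FPKM in the overexpression libraries. TP63, CDH1 and KRT14 were also called higher in number 2, KRT7 and KRT8 were called lower, and EPCAM and KRT18 were not called. The summed level of the epithelial list was 2095 to 2286 FPKM in the vector and 2184 to 2699 FPKM in the overexpression libraries. Of 6 fibroblast markers, COL1A1 alone reached the tested range, and it was higher in number 2 (11.1 and 8.67 FPKM) than in the others (2.95 to 4.57 FPKM), while COL1A2 was at 0 in all 6. The list's summed level was 4.05 to 11.3 FPKM in the vector and 3.07 to 8.90 FPKM in the overexpression libraries. None of 4 endothelial markers was tested. PECAM1 read 1.27 and 0.985 FPKM in number 2 and at most 0.0745 FPKM elsewhere, KDR was at 0 in all 6, and the list summed to 0.101 to 1.71 FPKM and 0.199 to 1.38 FPKM. Of 5 immune markers, PTPRC, CD3E and LYZ were at 0 in all 6, and the list, nearly all CD68, summed to 7.19 to 8.04 FPKM and 6.49 to 10.8 FPKM. The part of these differences in the lower levels of the mitochondrial ribosomal protein genes was not tested. In bulk RNA, fewer cells of a kind and less RNA per cell cannot be told apart.

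Between overexpression and vector, 0% of all rows were called without the replicate block and 0.0995% with it. Of 7 related gene groups, none had a member called in either fit. Their counts by replicate number stand beside the 20.7% of all rows that were lower and the 29.5% that were higher in number 2, and the groups were not tested against each other. Mitochondrial ribosomal proteins with other symbols had 3 of 5 tested genes lower and none higher, with a median of -0.56. GADD45GIP1 (-1.06), AURKAIP1 (-0.76) and DAP3 (-0.56) passed, CHCHD1 (-0.24) and PTCD3 (0.05) did not. Factors that assemble the mitochondrial ribosome had 14 of 26 lower and 1 higher (median -0.44). For mitochondrial translation factors the counts were 7 of 16 and 0 (median -0.24), and for mitochondrial aminoacyl-tRNA synthetases 7 of 17 and 0 (median -0.31). Genes for transcription and replication of mitochondrial DNA had 5 of 12 lower and 1 higher. The lower ones included TFB2M (-1.28), which helps the mitochondrial RNA polymerase to start, and TWNK (-1.18), the replicative helicase. Of 8 tested regulators of nuclear mitochondrial genes, the coactivator PPRC1 (-0.92) and GABPB1 (-0.82), a subunit of an ETS-family factor, were lower and none was higher. Cytosolic ribosomal proteins, at a median level of 421 FPKM, had 41 of 82 lower and none higher, with a median of -0.31. With TMM factors, where 32.4% of all rows were lower and 20.7% higher, 68 of the 82 were lower and none higher. The translation factors then had 10 lower, the synthetases 11 and the genes for mitochondrial DNA 10, and as TPM 7, 4 and 4. For the cytosolic ribosomal proteins with the GC and length correction, 34 were lower and 4 higher.

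Several mitochondrial ribosomal protein genes start close to a neighbour that is transcribed the other way. By the outermost gene ends of GENCODE 29, starts within 1000 bases on opposite strands were found for 29 of the 78 genes (37.2%), against 18.4% of 11165 tested coding genes. The outermost end can belong to a rare transcript, so the pairs were checked against RefSeq starts. Of 24 pairs whose neighbour was tested and was not itself one of the 78, 16 had RefSeq starts within 1000 bases, 3 did not and 5 had no window for one of the genes. In the 16 pairs, 12 of the mitochondrial ribosomal protein genes were called lower in number 2, with a median of -0.64. Of their neighbours 3 were lower, 1 was higher and 12 were not called, with a median of -0.11, where 20.7% of all rows were lower and 29.5% higher. The gene of the ribosomal protein lay below its neighbour in 13 of the 16 pairs. The differences within pairs were not tested.

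MRPS12 (-1.19) stood beside SARS2 (-0.17), a mitochondrial seryl-tRNA synthetase gene that was not called. These 2 genes share 16.3% of the exon length of MRPS12 on opposite strands, so without stated strand use their reads cannot be told apart there. MRPL14 (-0.46) stood beside TMEM63B, which was higher in number 2 by 0.66 (SE 0.14, limma, adjusted p = 0.00335). MRPS7 (-0.92) stood beside GGA3 (0.11) and MRPL27 (-0.98) beside EME1 (-0.21), and neither neighbour was called. In 2 of the 16 pairs both genes were called lower. They were MRPL18 (-0.74) with TCP1 (-1.21), a subunit of the cytosolic chaperonin, and MRPL49 (-0.50) with FAU (-0.63), a cytosolic ribosomal protein gene. FAU (mean 174 FPKM) shares 9.16% of the exon length of MRPL49 on the opposite strand, so their reads cannot be told apart there either. SKA3 (-0.77) was lower beside MRPL57 (-0.21), which was not called. Of the 3 pairs without close RefSeq starts, 1 neighbour was lower, NDUFS6 (-0.82) beside MRPL36 (-0.81), and 2 were higher. Of the 5 without a window, 1 was lower, TWNK (-1.18) beside MRPL43 (-0.40), and 2 were higher.

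**Figure D5:**
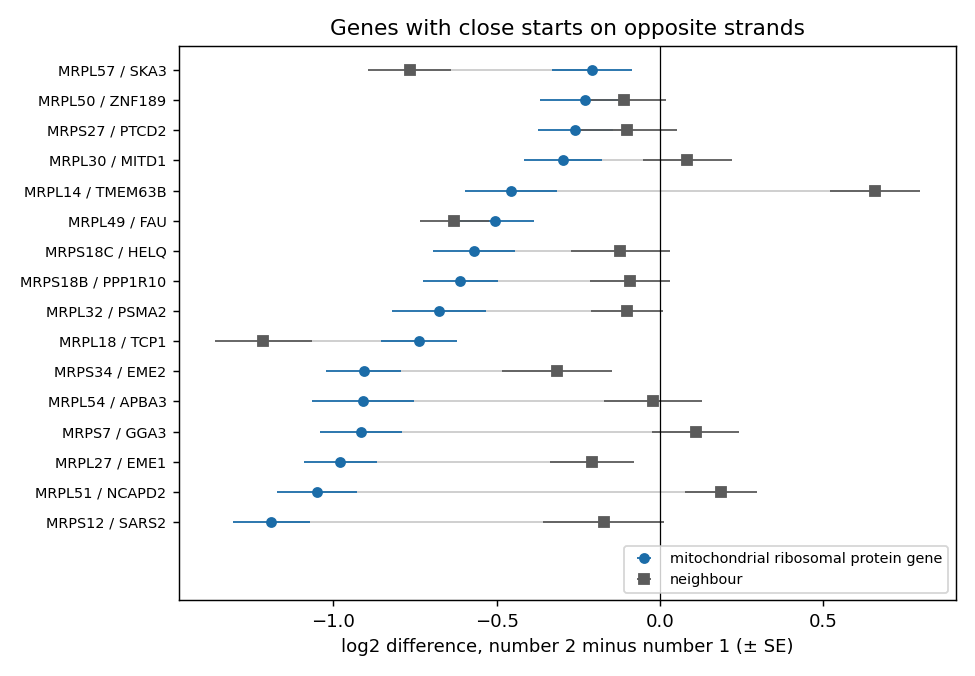
Log2 difference of number 2 from number 1 with its standard error (horizontal axis) for the 16 pairs of genes with RefSeq starts within 1000 bases on opposite strands, with the mitochondrial ribosomal protein gene as a blue circle and its neighbour as a grey square. The circle lies left of the square in 13 of 16 pairs.

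As a description, the start regions of the mitochondrial ribosomal protein genes were searched for the letters of a few known motifs. RefSeq windows of 300 bases on GRCh38.p14, from 250 bases before to 50 bases after the start, matched 69 of the 78 genes. The ETS letters CCGGAAG, read on both strands, were present in 29 of them (42.0%), against 10.3% of all 35116 windows. The YY1 letters AAGATGGC were present in 20 (28.99%), against 2.89%, and the NRF1 letters GCGCATGCG in 3 (4.35%), against 1.92%. The SP letters GGGCGG were in 60.9% against 45.0%, the E-box CACGTG in 8.70% against 7.26% and CCAAT in 28.99% against 34.6%. The median difference of number 2 from number 1 was -0.53 for genes with the ETS letters and -0.57 for those without, and -0.67 with and -0.51 without the YY1 letters. The 69 windows are 1 per gene, whereas the 35116 windows were limited neither to 1 per gene nor to genes expressed here. A match is a run of letters and not a measured binding site. A link between the letters and the difference by number was not tested.

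The last 100 bases before the start are shown for 9 genes, on the strand of the gene and 5′ to 3′, chosen to set genes with a wide drop (MRPL22, MRPL12, MRPL11, MRPS23, MRPL3, MRPL20) beside genes with a small one (MRPS14, MRPS18A) and one in between (MRPL58). Capitals mark the NRF1 letters in MRPL22 and the ETS letters, or their reverse complement CTTCCGG in MRPS23, in the others. The windows of MRPL12, MRPL11 and MRPS14 hold none of the ETS, YY1 or NRF1 letters in this stretch. Among these 9 genes wide drops stand with and without capitals, and MRPS18A has the ETS letters with a difference that did not pass. The genes were chosen after their values were seen, so nothing on the letters and the drops follows from this. The stretch ends at the start, which leaves out YY1 letters after it in MRPL20, MRPL22 and MRPS18A.
MRPL22 (chr5:154940973-154941072, plus strand): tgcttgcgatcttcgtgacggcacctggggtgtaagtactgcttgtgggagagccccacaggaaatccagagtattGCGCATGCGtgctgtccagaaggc
MRPL20 (chr1:1407294-1407393, minus strand): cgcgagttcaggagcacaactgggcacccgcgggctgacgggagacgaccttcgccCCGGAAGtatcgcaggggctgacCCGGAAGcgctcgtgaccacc
MRPL3 (chr3:131502972-131503071, minus strand): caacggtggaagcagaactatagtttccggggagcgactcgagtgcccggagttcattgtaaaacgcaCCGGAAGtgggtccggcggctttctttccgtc
MRPS23 (chr17:57850045-57850144, minus strand): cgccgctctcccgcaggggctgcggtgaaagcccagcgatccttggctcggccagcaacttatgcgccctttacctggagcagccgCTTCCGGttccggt
MRPL58 (chr17:75012570-75012669, plus strand): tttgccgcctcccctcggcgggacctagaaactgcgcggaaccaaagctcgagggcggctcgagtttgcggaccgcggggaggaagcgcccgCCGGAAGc
MRPS18A (chr6:43687792-43687891, minus strand): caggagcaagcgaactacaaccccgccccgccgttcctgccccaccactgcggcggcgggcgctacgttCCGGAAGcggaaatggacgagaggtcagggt
MRPL12 (chr17:81703267-81703366, plus strand): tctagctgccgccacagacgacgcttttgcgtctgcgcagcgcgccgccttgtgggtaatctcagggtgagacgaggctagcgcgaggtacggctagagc
MRPL11 (chr11:66438849-66438948, minus strand): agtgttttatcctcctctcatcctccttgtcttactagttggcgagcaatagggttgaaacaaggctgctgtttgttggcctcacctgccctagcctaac
MRPS14 (chr1:175023426-175023525, minus strand): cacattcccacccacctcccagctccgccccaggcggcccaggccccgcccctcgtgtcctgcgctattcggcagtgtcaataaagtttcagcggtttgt

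The YY1 letters sat mostly just after the start. In 15 of the 20 genes they lay on the strand of the gene between bases 7 and 43 after the start, in 21.7% of the 69 windows against 1.25% of all windows. The letters contain ATG, and in 12 of these 15 genes that ATG is an annotated start codon in GENCODE 29, so the match and the first codons cannot be told apart by letters alone. Stretches of 20 bases around the match, with the YY1 letters in capitals, show this arrangement for 5 genes.
MRPL20 (chr1:1407265-1407284, minus strand): ccgggcAAGATGGCagcggc
MRPL22 (chr5:154941102-154941121, plus strand): gggcgaAAGATGGCggcggc
MRPL51 (chr12:6493228-6493247, minus strand): aggcccAAGATGGCtgtctt
MRPS7 (chr17:75261892-75261911, plus strand): ccagccAAGATGGCtgcccc
MRPS24 (chr7:43869485-43869504, minus strand): tggcccAAGATGGCggcctc
YY1 itself was level over the libraries, at 17.6, 16.7 and 18.6 FPKM in the vector and 16.7, 17.3 and 17.4 FPKM in the overexpression libraries, and its difference of number 2 from number 1 was -0.01 (SE 0.12, limma, adjusted p = 0.942). GABPA, the DNA-binding partner of GABPB1, read 6.84, 6.32 and 7.88 FPKM and 6.01, 7.43 and 8.03 FPKM, a difference of 0.08 that was not called. GABPB1 read 16.2, 7.47 and 17.5 FPKM and 13.98, 8.76 and 14.8 FPKM, lowest in number 2 of both groups (limma, adjusted p = 0.00104). NRF1 and MYC, both at -0.24, were not called (limma, adjusted p = 0.168 and 0.101). Of the 8 tested regulators 2 were lower in number 2, beside 20.7% of all rows. Whether the levels of these regulators bear on the mitochondrial ribosomal protein genes was not tested.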

How the data were processed

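Gene expression was measured by RNA-seq in 6 libraries of SACC-83 cells, 3 per group. TRIzol extraction, mRNA purification and an NEBNext Ultra kit were used, per the labels' protocols. Per the submitters' processing notes, HISAT2 and the build GRCh38 were used. For versions, counting tool and annotation, nothing is given in the sources used here. All deposited values are FPKM, computed by the authors, with no counts, so no count test could be run. FPKM depends on the library total and on the gene length used.

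Rows with at least 1 FPKM in at least 3 libraries were kept (12064, of which 11166 have an Ensembl identifier). Tests were made on log2(FPKM + 1) in R 4.3.3 with limma 3.58.1. They were 2-sided, used eBayes with trend and were adjusted by Benjamini-Hochberg over all rows kept, with a threshold of 0.05. Deviations from the group means correlated at 0.725, 0.881 and 0.529 between libraries of the same number, and at -0.818 to 0.424 between the others. Deviations within a group sum to 0, so positive values for the same number go with negative ones elsewhere. Vector 1 with overexpression 3 (0.424) and vector 3 with overexpression 1 (0.412) were not far below the 0.529 of number 3. On these values, and not on the labels, libraries of the same number were treated as pairs. Self-tests of the fits on simulated data passed. These data held independent noise, changes wider than those of the 78 genes and no replicate effect outside the genes given a change. They do not show how the fits perform on smaller changes or on libraries that deviate by number. Identifiers, positions, exon length and GC content come from GENCODE 29, and all 78 symbols matched it. Start-region sequences are those of RefSeq on GRCh38.p14.

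The genes, lists and tests were chosen with earlier results of these data known. Genes were named by rule: highest and lowest levels, group differences and number differences, non-overlapping genes, the S18 paralogs, MRPL12 and MRPS30. MRPS7, MRPS34, MRPL58, MRPS5, MRPL10, the head-to-head pairs and their RefSeq check and the genes shown by sequence were added after their values were seen. Alternatives covered pseudocount, filter, scaling, trend, GC content and length, the block and leaving out libraries.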

Additional observations from a re-analysis of the deposited data

How the results depend on the processing

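No gene of the 78 was called between the groups under any of the 20 alternatives, and the number lower in replicate number 2 than in 1 stayed within 1.5 times under all 15 alternatives run for it. The count of all rows called between groups was 12 with the replicate block, 5 with the replicate block and the GC and length correction, and 12, 135 and 22 with the replicate block when number 1, 2 or 3 was left out of both groups. It ranged from 0 to 1 when single libraries were left out. The median group difference then ranged from -0.13 to 0.21 in the large and from -0.090 to 0.21 in the small subunit. The number of the 78 genes higher with overexpression, 61 as deposited, was then between 12 and 74. As TPM and with TMM factors it was 54, and with quantile scaling 50. With the GC and length correction it was 48, with a median of 0.034 beside 0.021 over all rows. The replicate block changed no other call. Without the low-value filter, 31 genes were called for replicate number and 20 were higher in number 3 than in 2; that count was 60 with TMM factors and ranged from 12 to 43 when single libraries were left out, alternatives chosen after seeing the data. The cause was not tested. With MRPS30 and MRPS18A in the large subunit, the median level difference between subunits was 0.32 on the log2 scale, against 0.19. Of 13 named genes, 8 turned sign in their group difference when libraries were left out, and none did otherwise: MRPL42 was 0.011 with the replicate block without number 1, and MRPL11 was 0.19 with the replicate block without number 3. Without single libraries the range was -0.44 to 0.17 for MRPL11, -0.19 to 0.0045 for MRPL30, -0.20 to 0.072 for MRPL33, -0.12 to 0.0081 for MRPS16, -0.052 to 0.39 for MRPS6, -0.10 to 0.51 for MRPL51 and -0.16 to 0.60 for MRPL1.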

Other observations

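The 13 protein-coding genes of mitochondrial DNA, whose mRNAs the mitochondrial ribosome translates, differed among themselves by replicate number. On average over libraries all 13 were lower with overexpression, as were 5058 of the 12064 rows tested. Their median log2 difference was -0.19 against 0.03 over all rows, and 0 of the 13 were called by limma with or without the replicate block. Within pairs of the same number, their median was -0.30, -0.23 and -0.05 for numbers 1, 2 and 3. Over all rows it was 0.06, 0.04 and -0.03. Between numbers 2 and 1, 6 were called higher and 3 lower, beside 29.5% and 20.7% of all rows. These counts moved with the scaling, to 2 higher and 3 lower with TMM factors (all rows 20.7% and 32.4%), 9 and 2 as TPM (35.3% and 17.2%), and 10 and 1 with the GC and length correction (29.1% and 22.9%). The median difference was 0.28 as deposited and 0.073 with TMM factors. MT-CO1 read 4246, 7700 and 5787 FPKM in vector libraries 1, 2 and 3 and 3443, 6551 and 5316 FPKM in overexpression libraries 1, 2 and 3, a difference of number 2 from number 1 of 0.89 (SE 0.10, limma, adjusted p = 0.000141). MT-CO2 was also higher (0.88), whereas MT-ND2 read 1724, 1192 and 1697 FPKM and 1511, 1058 and 1733 FPKM and was lower (-0.52). The 13 together summed to 28140, 37880 and 34450 FPKM in the vector and 23050, 32000 and 33020 FPKM in the overexpression libraries.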
